A study of Mus musculus with 7 samples.

Results

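The 39 genes described here are a list of interferon response genes, each named by its symbol and read from the 55491 gene rows of a single-cell UMI matrix (a UMI is a tag that marks 1 captured RNA molecule). All 39 had at least some UMIs. They were measured in 28644 cells from 7 mice, each mouse giving 1 library, and the submitters had placed every cell in 1 of 23 fine subtypes. The mice, 8 to 12 weeks old, carried an intracranial tumour grown from CT-2A, a mouse glioma line. In the 4 knockout (KO) mice an inducible Cre driven from the Sall1 locus (Sall1-CreERT2) was combined with floxed Siglece alleles (Siglece fl/fl), so that deletion was directed at microglia, the brain's resident macrophages. The 3 control (WT) mice carried the same Siglece fl/fl alleles without the driver. All 7 received tamoxifen at 2.5 mg by intraperitoneal injection from day 7, daily until day 21 and every other day after that, so the drug is shared by both groups. The tumour-bearing hemisphere was dissociated, and live cells positive for CD45, CD11b or both were sorted and loaded for 10x 5′ sequencing. Siglece encodes Siglec-E, an inhibitory receptor of myeloid cells that binds sialic acid. The libraries are called KO1 to KO4 and WT1 to WT3 after the labels' replicate numbers, and values are always given in that order.

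Type I interferons bind the IFNAR receptor, whose kinases JAK1 and TYK2 activate transcription factors, STAT2 and IRF9 among them, that bind the interferon-stimulated response element (ISRE) in promoters of interferon-induced genes. Interferon gamma acts through its own receptor and on gamma-activated sites (GAS). The induced genes include RNA-binding IFIT proteins, OAS enzymes that sense double-stranded RNA, the ubiquitin-like modifier ISG15, guanylate-binding GTPases and membrane proteins that restrict viruses. In tumours these genes are used as a readout of interferon signalling in myeloid cells and lymphocytes.

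Promoter windows (250 bases before to 50 after the start site, RefSeq, GRCm38.p6) were at hand for 30 of the 39 genes. The ISRE core searched for was GAAA, any 2 bases, then GAAA on either strand, which reads TTTC, any 2 bases, then TTTC on the other one. It occurred in 17 of the 30 genes (56.7%) and in 1079 of 27025 genes with a window (3.99%). The GAS pattern TTCNNNGAA occurred in 7 of the 30 (23.3%) and in 2582 of the 27025 (9.55%), and the 2 patterns can overlap, as they do in Bst2 and Ifitm3. The promoters shown are a choice among genes with an ISRE core before the start site, so they do not stand for the 39 genes. Irf7, Isg20 and Ifi44, also named below, had a window without an ISRE match. Each stretch shown ends before the start site and is written 5′ to 3′ along the gene with the ISRE cores in capitals. The stretch of Ifit1 lies at chr19:34640639-34640888 on the plus strand, with cores that begin 104 and 85 bases before the start site. That of Isg15 lies at chr4:156200819-156201068 on the minus strand, where 3 cores overlap from 78 bases before the start.
Ifit1: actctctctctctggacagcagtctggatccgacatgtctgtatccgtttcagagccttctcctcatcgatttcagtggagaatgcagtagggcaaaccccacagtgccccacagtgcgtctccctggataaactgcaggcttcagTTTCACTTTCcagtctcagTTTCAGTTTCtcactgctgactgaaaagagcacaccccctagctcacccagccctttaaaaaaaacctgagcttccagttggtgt
Isg15: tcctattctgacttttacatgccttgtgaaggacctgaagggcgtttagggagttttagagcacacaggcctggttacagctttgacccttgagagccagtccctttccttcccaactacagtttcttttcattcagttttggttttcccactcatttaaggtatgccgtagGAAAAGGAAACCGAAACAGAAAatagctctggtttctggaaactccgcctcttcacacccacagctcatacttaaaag

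Shorter stretches around the cores of 5 more genes hold the same core. Ifit3 (chr19:34583348-34583441, plus strand) and its paralog Ifit3b (chr19:34607744-34607837, plus strand) had the same 94 bases, printed once. Rsad2 is at chr12:26456538-26456597 (minus strand), Oas1a at chr5:120907526-120907570 (minus strand) and Bst2 at chr8:71537562-71537627 (minus strand). A match is a description of the letters and was not tested for binding.
Ifit3 and Ifit3b: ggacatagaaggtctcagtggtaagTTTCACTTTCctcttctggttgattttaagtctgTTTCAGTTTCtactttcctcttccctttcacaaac
Rsad2: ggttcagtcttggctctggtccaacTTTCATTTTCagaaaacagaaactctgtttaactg
Oas1a: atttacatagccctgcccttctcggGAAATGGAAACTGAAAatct
Bst2: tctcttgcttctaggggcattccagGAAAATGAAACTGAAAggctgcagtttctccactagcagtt

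The libraries held 1410 to 5856 cells and 16037214 to 38966377 UMIs, with a median of 4479 to 9554 UMIs per cell. Of the marker lists checked, P2ry12 and Tmem119 were highest in the microglia, Ly6c2 in the monocytes, Xcr1 and Clec9a in the cDC1, Klk1 in the pDCs and Ncr1 in the NK cells. Cd209a, a marker of monocyte-derived dendritic cells, was highest in the mo-DCs. All 5 NK, 5 B cell, 6 pDC and 7 T cell markers were highest in cells of that label, while no markers that separate the T cell subsets were checked. Other markers peaked elsewhere: Ccr2, listed for monocytes, in gamma-delta T cells, and Plac8 (monocytes), Clec10a (dendritic cells) and Siglech (microglia and pDCs) in pDCs. Of 7 tumour or stromal markers 3 (Sox2, Col1a1 and Col3a1) were highest in the tumour or stromal cells, and Gfap, Pecam1, Cldn5 and Olig1 were not. Sall1, the gene whose locus carries the driver, was highest in the low-quality or activated microglia (127.1 UMIs per 1000000). Siglece, the targeted gene, gave 2, 1, 0 and 0 UMIs in the 2 microglia subtypes of the KO libraries and 20, 19 and 7 in those of the WT libraries. Per 1000000 UMIs of these cells this was 10.7, 19.6, 0 and 0 in the KO libraries and 36.1, 45.9 and 18.6 in the WT libraries, so that KO2 lay above WT3. The KO values rest on 13 to 49 cells a library, where the 0 of KO3 allows a level of up to 81.3 and that of KO4 up to 16.7 (3 counts of the total, counting error only). KO1, KO2 and WT3 came from female mice and the other 4 from male mice, by Xist and Y-linked genes. Between 49 and 190 cell barcodes per library also occurred in another library, and whether they mark the same cells was not tested. WT1 stood apart: of the 11 subtypes with at least 20 cells in all 7 libraries, it had the highest summed level of the 39 genes in 10. Counts of genes in a subtype are therefore followed by their range when each mouse was left out, over fits with at least 2 libraries per group. In 6 T cell subtypes that allows leaving out KO mice only. The background beside a count is that of the fit with all mice unless said, and it too moved when a mouse was left out. Each library is 1 mouse, so the p-values measure the spread between mice. For Ifit3b 64.1% of the UMIs, for Ifi204 60.5%, for Ifit3 37.2% and for Oas1a 24.1% lay in values that were not whole, where the submitters' counting had shared reads between near-identical genes. The levels of these 4 are uncertain.

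Levels are given as CPM, the UMIs of a gene per 1000000 UMIs of a subtype in a library, wherever it had at least 20 cells, which held for 142 of 161 pairs. The monocytes (P1-P2) had the highest summed level of the 39 genes, and 16 of the 39 had their highest mean level there. Their sums were 8891, 7211, 11647 and 13009 in the KO libraries and 18621, 13131 and 12007 in the WT libraries. The mo-DCs (4532 to 13410 over the 7 libraries), the P3 macrophages (4511 to 12057) and the pDCs (5517 to 9615) came next in ranges that overlapped across mice. The lowest sums were those of B cells, from 1479.6 to 2683, NK cells, from 1403 to 2631, and proliferating CD8+ T cells, from 1677 to 3128, again overlapping. Within each of the 7 libraries the monocytes were above the mo-DCs (1.39 to 2.38 times), the P3 macrophages (1.52 to 1.75 times) and the pDCs (1.11 to 1.94 times). The place of the pDCs rests largely on Bst2, with a mean of 4491 in the WT libraries, where the mean sum was 8935. Without Ifitm3, Ifi27l2a, Bst2 and Isg15, a choice made after the data were seen, the pDC sums ran from 1298 to 3369. Monocytes then ran from 2975 to 8934 and naive or early-activated CD8+ T cells from 2244.5 to 5151.

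Single genes had their highest level in subtypes other than the monocytes. Bst2, which encodes tetherin and is a known pDC marker, had a mean level of 4213 in pDCs, and in the WT libraries alone 4491, against 1039 in P5 macrophages, the next in order there. Ifi27l2a, a small interferon-induced membrane protein gene, was highest in Tregs at 2588, followed by Th1 cells at 1751. Ifitm3, whose protein blocks viral entry, reached 3254 in monocytes and 2719 in mo-DCs and was lowest, at 111, in pDCs. Means are over all libraries with enough cells, KO and WT together, and the highest subtype was the same over the WT libraries alone for 35 of the 39 genes. Naive or early-activated CD8+ T cells had the highest mean level of 5 genes: Ifit1 (143.5), Ifit3 (222), Ifit3b (50.6), Usp18 (88.0) and Nmi (72.8), though over the WT libraries alone Nmi was highest in Tregs. For Isg20, an exonuclease gene that degrades viral RNA, the highest level was that of Tregs at 319. Oasl1, an OAS-like inhibitor of Irf7 translation, was highest in cDC2 at 211, and Gbp4 in gamma-delta T cells at 258, a mean over 1 KO library (255) and 3 WT libraries (258, 207 and 314).

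**Figure D1:**
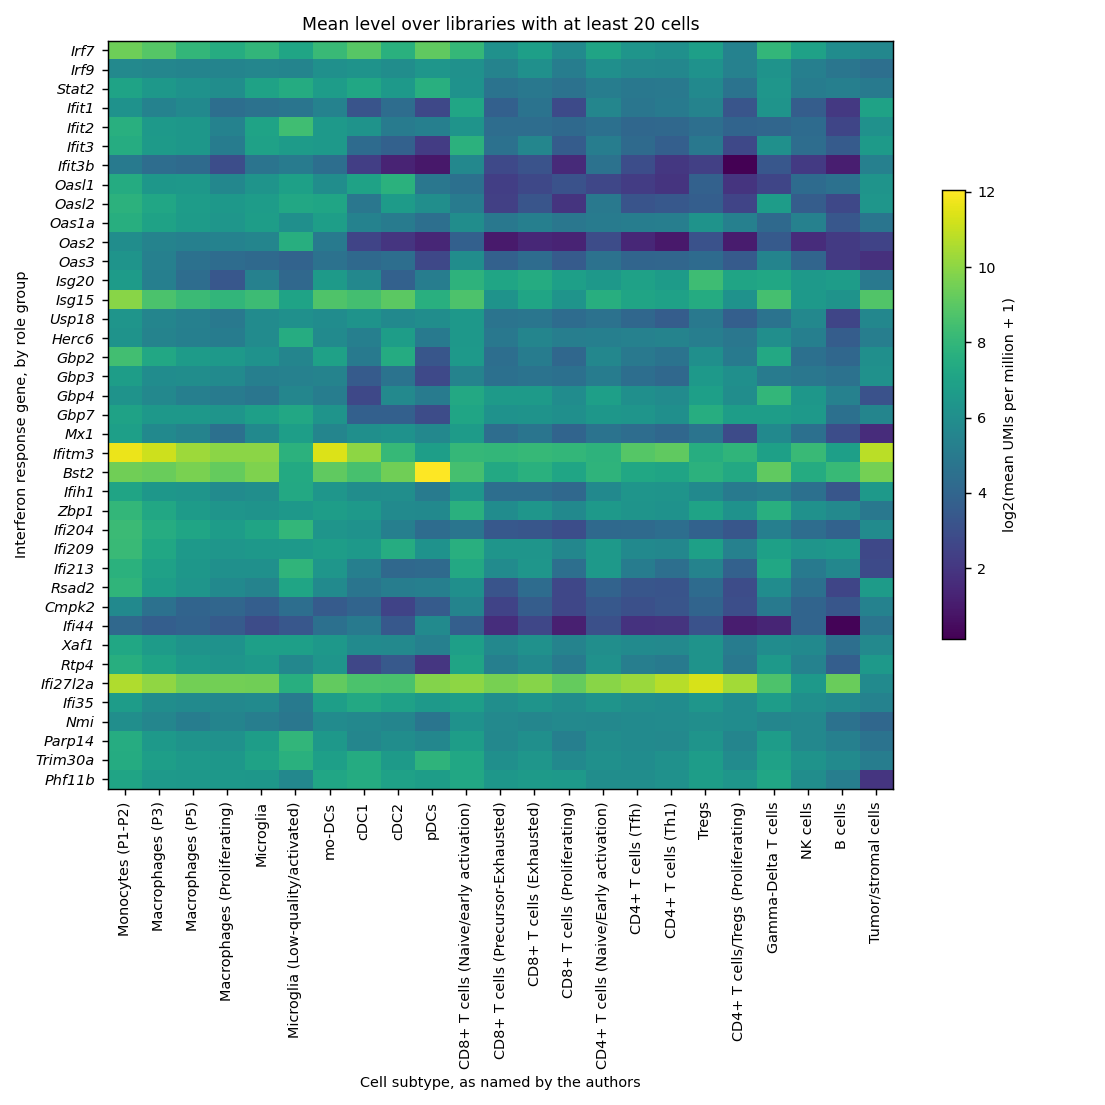
Mean level of each of the 39 genes (rows, grouped by role) in each subtype (columns), averaged over libraries with at least 20 cells and coloured as log2(CPM + 1). The monocyte column is the highest for 16 genes, while Bst2 in pDCs (4213 CPM) and Ifi27l2a in Tregs (2588) stand out in other columns.

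In all 21 subtypes that could be compared, the mean summed level was lower in the KO libraries. The ratio of the KO mean to the WT mean ran from 0.557 in mo-DCs to 0.856 in low-quality or activated microglia. In 9 of the 21 every KO library was below every WT library, and in 8 with mitochondrial and ribosomal protein genes left out of the total. The difference was exhausted CD8+ T cells, where KO1 (3467) and WT3 (3468) were nearly level. This held in 4 of the 11 subtypes with all 7 libraries: mo-DCs, pDCs, naive or early-activated CD8+ T cells and naive or early-activated CD4+ T cells. These counts rest in part on 4 genes, Ifitm3, Ifi27l2a, Bst2 and Isg15, which had the highest mean levels. With the sums taken without them, a choice made after the data were seen, all 21 KO means were still lower (ratios from 0.512 to 0.973). Every KO library was then below every WT library in 4 of the 21 (mo-DCs, Tregs, Th1 cells and B cells), and in 1 of the 11 full subtypes, the mo-DCs. In pDCs KO4 (2223) then lay above WT2 (1941), in naive or early-activated CD8+ T cells KO3 (4283) above WT2 (4189), and in naive or early-activated CD4+ T cells KO4 (1779) above WT3 (1765). WT1 was above every KO library in 14 of the 15 subtypes that included it, the exception being precursor-exhausted CD8+ T cells. Among the 11 full subtypes KO1 was lowest in 6, KO2 in 4 and KO3 in 1.

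**Figure D2:**
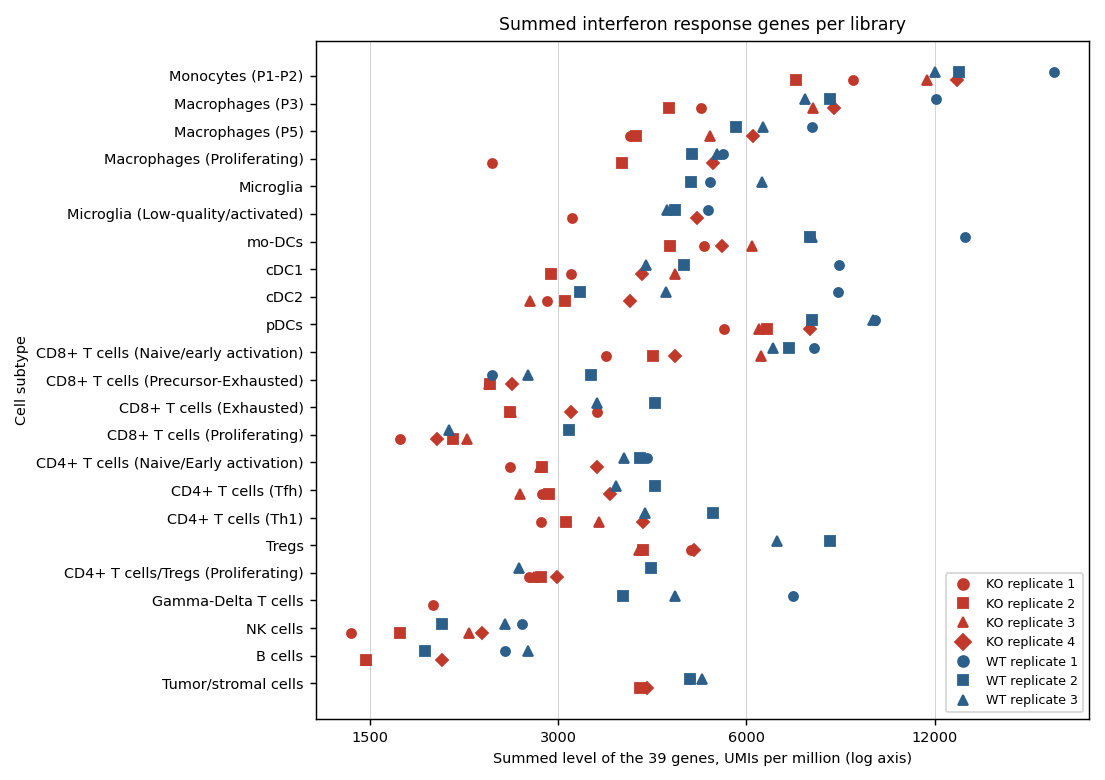
Summed level of the 39 genes in CPM (log axis) for each subtype, with 1 point per library and the KO and WT libraries in different colours. In mo-DCs the 4 KO points lie between 4532 and 6127 and the WT points between 7588 and 13410.

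Gene by gene, the knockout was compared with the control by edgeR's quasi-likelihood test on UMIs summed per subtype and library, with Benjamini-Hochberg adjustment over all genes of a subtype. The 39 genes passed the filter on low counts in 704 of 819 possible combinations of gene and subtype. Of the 704 log2 changes, 608 (86.4%) were below 0, against 49.2% over all genes. An unadjusted p under 0.05 with a lower level in the KO libraries was found in 214 (30.4%), against 2.76% over all genes. The opposite direction was found in 0 of the 704, against 2.68% over all genes. The 704 tests share the same 7 mice across genes and subtypes. They are therefore not independent, and these shares do not count separate results. The median log2 change of the genes was below 0 in each of the 21 subtypes, from -1.03 in mo-DCs to -0.06 in Tfh cells, while the median over all genes lay between -0.01 and 0.03. Without WT2 it turned above 0 in 3 subtypes: Tfh cells (0.044) and proliferating CD4+ T cells and Tregs (0.27), both with WT3 as the only WT library left, and tumour or stromal cells (0.0087). After adjustment only 1 of the 704 was called, Ifit1 in naive or early-activated CD8+ T cells, while 0.0166% of the tests of all genes were called. The same sums gave 25 called members by DESeq2, 15 of them in mo-DCs, with 0.0836% of all tests called. Without KO4 edgeR called 14 (0.0768% of all tests), 1 of them in tumour or stromal cells, where a single KO library was left and its spread was taken from the other group. Without WT1 it called 0 (0.00886% of all tests). Since the summed counts of a subtype mix cells, fewer responding cells and less RNA per responding cell cannot be told apart in them.

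**Figure D3:**
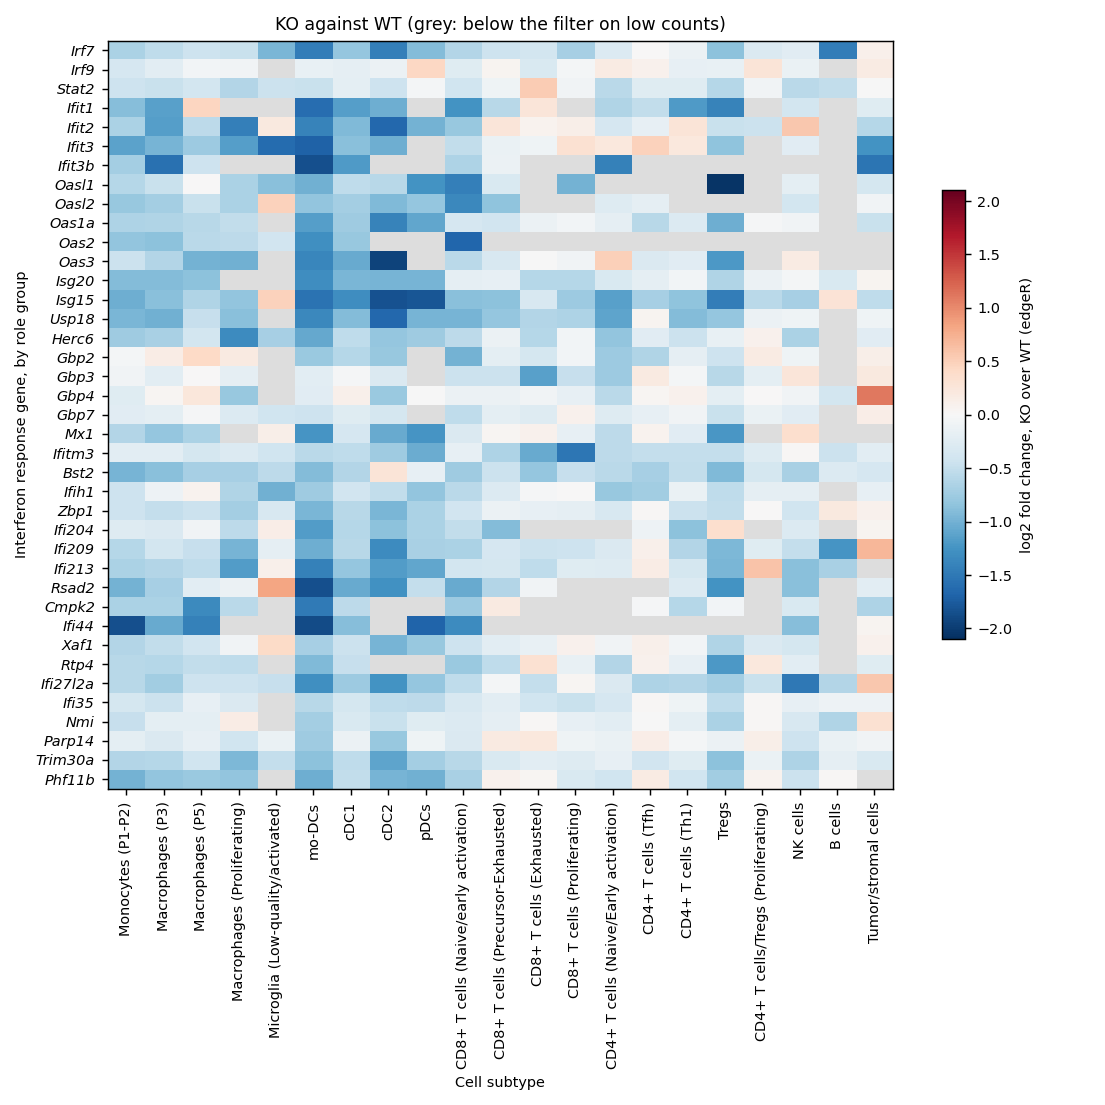
Log2 change (KO over WT, edgeR) of each of the 39 genes (rows) in each of the 21 compared subtypes (columns), with grey where a gene did not pass the filter on low counts. Of the 704 coloured cells 608 are below 0, and the mo-DC column has a median of -1.03.

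The share of lower values differed in size across lineages, each given here beside its own background, and the differences between lineages were not tested. In the 4 dendritic subtypes 81 of 141 tests (57.4%) had a lower level at an unadjusted p under 0.05, against 3.85% of all genes there. In the 9 T cell subtypes this was 85 of 302 (28.1%), against 2.02%. In the 4 monocyte and macrophage subtypes it was 39 of 151 (25.8%), against 3.1%. Without WT1, which left 15 subtypes to refit, 97 of 508 tests had a lower level at that threshold, against 2.29% of all genes, where the same 15 subtypes had given 165 of 511 with it. All 15 medians stayed below 0 without WT1, from -0.69 to -0.16. The dendritic subtypes then had 44 of 141 tests (31.2%, background 2.9%) and the monocytes and macrophages 18 of 148 (12.2%, background 1.99%). In the T cells, 6 of the 9 fits hold no WT1. KO4 moved the counts the other way: without it 259 of 628 tests in 19 subtypes passed, where the same subtypes had given 208 of 647 with it. The monocytes and macrophages then had 82 of 154. Beside this, the share of all genes was 5.39% in monocytes and 3.69% in P3, 3.91% in P5 and 2.96% in proliferating macrophages. Over all genes the share of lower values without KO4 ran from 0.905% in B cells to 6.18% in cDC2, against 0.581% and 5.28% with it. The dendritic subtypes had the most without WT2, 106 of 142, given without a share over all genes.

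The mo-DCs, singled out here after their values were seen, had the lowest ratio of summed levels. Their sums were 5130.0, 4532, 6127 and 5476 in the KO libraries and 13410 (WT1), 7588 and 7637 in the WT libraries. All 4 KO libraries were below all 3 WT libraries, and WT1 was far above WT2 and WT3. Of 39 genes 34 had a lower level at an unadjusted p under 0.05 (background 4.2%), and for 20 every KO library was below every WT library (background 2.82%). Without WT1 the 34 became 21 and the median -0.69, while without WT2 35 passed. The sum without the 4 genes named above had a ratio of 0.512. Isg15 was at 223, 149, 278 and 306 in the KO libraries and at 1080.4, 502 and 468 in the WT libraries. The groups did not overlap, and the log2 change was -1.56 (SE 0.35, unadjusted p = 0.00218). Isg20 was at 52.2, 50.9, 72.6 and 68.6 in the KO libraries and at 197, 138 and 99.1 in the WT libraries, again with no overlap. Its log2 change was -1.30 with an unadjusted p of 9.1e-05, the lowest among the 39 genes in this subtype, and an edgeR adjusted p of 0.423. Counts of genes with every KO library below every WT library were lower outside mo-DCs, Tregs and naive or early-activated CD8+ T cells. They were 9 of 34 in Th1 cells (background 5.98%), 6 of 39 in P5 macrophages (4.515%) and 5 of 39 in monocytes (3.12%). In cDC1 it was 3 of 39 (3.21%), in P3 macrophages 2 of 39 (3.36%) and in B cells 0 of 16 (1.31%). NK cells and precursor-exhausted CD8+ T cells had 2 of 37 each (2.985% and 2.845%).

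The other dendritic subtypes had fewer genes past the unadjusted threshold. In cDC2, which take up and present antigen mainly to CD4+ T cells, 18 of 34 tested genes were lower at an unadjusted p under 0.05 (background 5.28%) with a median of -0.96, and the count ran from 10 without WT1, with a median of -0.57, to 29 without WT2. The sums overlapped: 2882, 3083, 2704 and 3906 in the KO libraries and 8392, 3258 and 4461 in the WT libraries. In cDC1, the cross-presenting subset, it was 16 of 39 (background 2.88%), from 7 without WT1 to 24 without KO3. The cDC1 sums were 3148, 2929, 4617 and 4084 in the KO libraries and 8439, 4777 and 4153 in the WT libraries, so that KO3 lay above WT3. In pDCs, known as strong producers of type I interferon, it was 13 of 29 (background 3.23%), from 6 without WT1 to 22 without WT2. Their sums were 5517, 6472, 6273 and 7593 in the KO libraries and 9615, 7641 and 9549 in the WT libraries, with KO4 and WT2 differing by less than the spread within either group. Irf7 in pDCs, picked out after its values were seen, had a log2 change of -0.92 (SE 0.21, unadjusted p = 6.006e-04).

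In naive or early-activated CD8+ T cells, the subtype with the 1 call, 20 of 39 genes were lower at an unadjusted p under 0.05 (background 2.72%), and 13 had every KO library below every WT library (background 3.3%). The sums were 3578, 4254, 6326 and 4614 in the KO libraries and 7707, 7016 and 6628 in the WT libraries. KO3 was the highest KO library and lay just below WT3. Ifit1, which encodes a protein that binds viral RNA lacking a host cap methylation, was at 61.7, 78.6, 126 and 87.8 in the KO libraries and at 275, 201 and 174 in the WT libraries. No KO library reached a WT library. Ifit1 fell by 1.25 on the log2 scale (SE 0.21), with an adjusted p of 0.0348 by edgeR's quasi-likelihood test. The call held in 11 of 15 alternatives, with the change between -1.45 and -1.05. Over left-out mice it was lost without KO2 (adjusted p = 0.252 by edgeR), WT1 (0.236) or WT2 (0.123). Isg15 in these cells was at 223, 273, 374 and 337 in the KO libraries and 643, 594 and 441 in the WT libraries. The 2 groups did not overlap, and the adjusted p by edgeR was 0.104. Without WT1, 14 genes had a lower level at the unadjusted threshold and the median moved from -0.57 to -0.47, and without KO3 it was 30 genes.

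Tregs, also picked out after the values were seen, had libraries with at least 20 cells from 4 KO mice and from WT2 and WT3, so WT1 plays no part in them. Their sums were 4901, 4097, 4034 and 4949.97 in the KO libraries and 8161 and 6723 in the WT libraries, a ratio of 0.604 with no overlap. Of 35 tested genes 24 were lower at an unadjusted p under 0.05 (background 2.52%), and 21 to 25 when each KO mouse was left out. For 26 every KO library was below both WT libraries, where 7.66% of all genes in Tregs showed this. Rtp4, a chaperone of membrane receptors and an interferon-induced negative regulator, was at 41.1, 34.4, 67.5 and 61.6 in the KO libraries and at 127 and 109.8 in the WT libraries. The groups were apart, with a log2 change of -1.20 (SE 0.25) and an edgeR adjusted p of 0.131. This was the lowest adjusted p of the 35 tested genes, and Rtp4 was picked out after its values were seen. Isg15 was at 56.9, 93.8, 98.4 and 179 in the KO libraries against 309.7 and 312 in the WT libraries, with no overlap and a log2 change of -1.46.

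The remaining lymphocyte subtypes had smaller medians. In naive or early-activated CD4+ T cells 10 of 33 genes were lower at an unadjusted p under 0.05 (background 2.32%), and the KO sums (2516, 2827, 2806 and 3467) were all below the WT sums (4159, 4057 and 3822). Without WT1 the 10 of 33 became 4, with the median moving from -0.35 to -0.33, and the range over left-out mice was 2 (without KO3) to 10 (without KO4). In Th1 cells it was 10 of 34 (background 1.68%), and 6 without KO3. In exhausted CD8+ T cells it was 6 of 32 (background 2.24%), and 4 without KO2 or KO3. Precursor-exhausted CD8+ T cells had 6 of 37 (background 1.65%), from 2 without WT2 to 10 without WT1. Tfh cells had 5 of 34 (background 1.88%), and 3 without KO3, and proliferating CD8+ T cells 4 of 31 (background 1.61%), with 4 to 5 over left-out KO mice. Proliferating CD4+ T cells and Tregs had 0 of 27, where 1.86% of all genes passed, and 1 without KO4. In NK cells it was 2 of 37 (background 2.21%), namely Ifi27l2a and Bst2, and in B cells 1 of 16 (background 0.581%). In NK cells the count ran from 2 to 8 (without KO3) and was 6 without KO4, and in B cells from 0 (without KO3, WT1 or WT3) to 4 (without KO4 or WT2). Ifi27l2a in NK cells was at 24.2, 56.1, 50.7 and 77.1 in the KO libraries and at 151, 141 and 149 in the WT libraries. The groups were widely apart, with a log2 change of -1.50 (SE 0.29, edgeR adjusted p = 0.278). This was the lowest adjusted p of the 37 genes tested in NK cells, and the gene was picked out after its values were seen. Over the alternatives its adjusted p ran from 5.39e-07 by edgeR with no filter on low counts to 0.905 without WT2, and it was called without KO1 (0.0213), without KO4 (0.00619) and by DESeq2 (0.00611). The tumour or stromal cells had 3 of 34 (background 4.29%), with 3 to 4 over left-out WT mice, and the median of -0.09 was among the smallest.

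In the monocytes, which enter the tumour from blood, all 39 log2 changes were below 0, with a median of -0.61, and 14 of 39 genes were lower at an unadjusted p under 0.05 (background 3.68%). The sums given above overlapped, since KO4 at 13009 lay above WT3 at 12007. Ifi44, a cytoplasmic protein gene induced by type I interferon, was at 6.50, 9.40, 9.68 and 6.53 in the KO libraries and at 34.9, 24.8 and 23.7 in the WT libraries. The monocytes of KO1 held 307548 UMIs in all and those of KO2 638457, so the KO levels of Ifi44 rest on few counts. All KO libraries were below all WT libraries, with a log2 change of -1.84 (SE 0.29, edgeR adjusted p = 0.144). This was the lowest adjusted p of the 39 genes in monocytes. Ifi44 and Bst2 were picked out here after their values were seen. Bst2 was at 309, 413, 572 and 716 in the KO libraries and at 1241, 869 and 834 in the WT libraries. It too did not overlap, with a log2 change of -0.98 and an unadjusted p of 0.00277. In all, 5 of the 39 genes had every KO library below every WT library in monocytes (background 3.12%). Without WT1, 5 of the genes had a lower level at the unadjusted threshold (background 2.8%), and the median was -0.37. Without KO4 the count was 22 genes (background 5.39%), and with sex as a term in the fit it was 25 (background 4.3%).

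In P5 macrophages 10 of 39 genes were lower at an unadjusted p under 0.05 (background 3.61%), from 4 without WT1 (background 1.965%) to 19 without KO4 (background 3.91%). The sums were 3910 (KO1), 3997, 5239 and 6153 in the KO libraries and 7636, 5768 and 6374 in the WT libraries, where KO4 exceeded WT2. In P3 macrophages it was 8 of 39 (background 2.82%), from 2 without WT1 (background 1.6%) to 18 without KO4 (3.69%), and 18 with a sex term (3.28%). Proliferating macrophages gave 7 of 34 (background 1.95%), from 3 without KO1 to 23 of 37 without KO4 (background 2.96%), where the median was -1.11. Low-quality or activated microglia, with 2 KO libraries, gave 3 of 23 (background 3.4%) with a median of -0.40, from 0 without WT2 to 3 without WT3.

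The same contrast was seen per cell after every cell was thinned to 2000 UMIs, with shallower cells left out (1 to 8 cells per library in mo-DCs and 3 to 60 in naive or early-activated CD8+ T cells, the 60 being 19.3% of those in KO2). The median mo-DC then carried 8, 8, 10 and 9 UMIs of the 39 genes in the KO libraries and 24, 12 and 14 in the WT libraries. No KO median reached a WT median. In naive or early-activated CD8+ T cells the medians were 5, 5, 6 and 5 against 8, 8 and 7, and the 90th percentiles were 21.7, 21, 34 and 23 against 33.8, 37 and 38.8. There the medians did not overlap, while KO3 overlapped WT1 at the 90th percentile. In monocytes the medians were 15.5, 12, 22 and 22 against 35, 22.5 and 22, so that KO3, KO4 and WT3 were equal. In cDC1 they were 5, 5, 7 and 7 against 15, 7 and 6, and WT1 alone was above the KO range. P5 macrophages had medians of 6, 7, 8 and 10 against 13, 9 and 11. In precursor-exhausted CD8+ T cells the medians were 4 in every KO library and 5, 6 and 4.5 in the WT libraries, and only 21 such cells came from WT1.

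**Figure D4:**
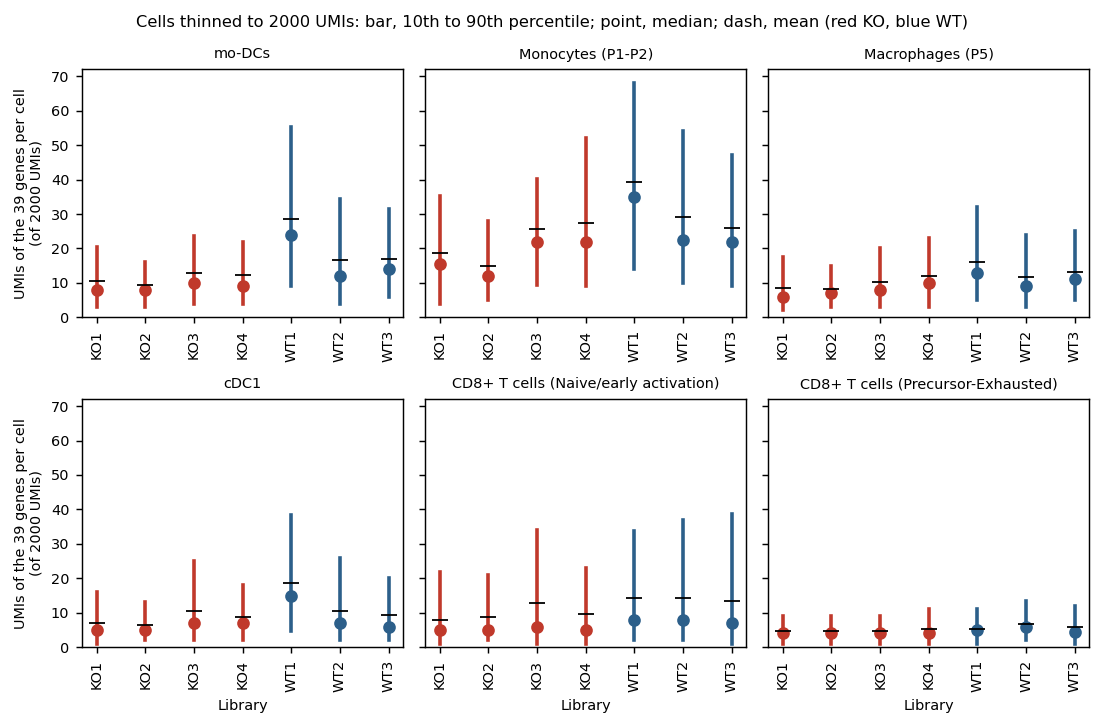
UMIs of the 39 genes per cell after thinning to 2000 UMIs, for 6 subtypes and each library with at least 20 cells, showing the 10th percentile, the median, the 90th percentile and the mean. In mo-DCs the KO medians are 8 to 10 and the WT medians 12 to 24.

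By role, the ISG15 pathway had the lowest median log2 change over its tests, -0.75, and the guanylate-binding proteins with Mx1 the median nearest to 0, -0.21. Differences between role groups were not tested. The counts of tests past the unadjusted threshold that follow are of lower levels, with the share over all genes of the 21 subtypes as background. To show how this looked outside the subtypes picked above, the most abundant gene of each role group is given in the largest T cell subtype (precursor-exhausted CD8+ T cells), the largest macrophage subtype (P5) and the largest dendritic subtype (cDC1). The precursor-exhausted CD8+ T cells of WT1 held 189054 UMIs in all, so low levels in that library rest on few counts.

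Transcription factors had a median of -0.29, and 10 of 61 tests had a lower level at an unadjusted p under 0.05 (background 2.76%). Irf7, the factor that amplifies type I interferon production, was at 41.1, 60.1, 62.0 and 66.7 in the KO libraries and 95.2, 93.4 and 63.3 in the WT libraries of precursor-exhausted CD8+ T cells. In P5 macrophages Irf7 was at 95.1, 156, 303 and 342 against 415, 239 and 269.5. In cDC1 it was at 236, 263, 581 and 427 against 1024, 512 and 441. KO4 overlapped WT3 in the T cells, KO3 and KO4 lay within the WT range in P5 macrophages, and KO3 did so in cDC1, with log2 changes of -0.44, -0.43 and -0.82. Irf9, a DNA-binding partner of STAT2, had a lower level at the unadjusted threshold in 0 of 19 subtypes, and Stat2 in 2 of 21.

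The IFIT family had a median of -0.69 and 19 of 62 tests past the unadjusted threshold (background 2.76%), the call of Ifit1 among them. Ifit2, an RNA-binding relative of Ifit1, was at 23.1, 23.6, 24.6 and 19.2 in the KO libraries and 5.29, 24.2 and 18.4 in the WT libraries of precursor-exhausted CD8+ T cells. P5 macrophages had it at 73.5, 42.7, 74.0 and 92.5 against 138, 92.9 and 87.5. The cDC1 had it at 35.1, 37.2, 91.1 and 54.4 against 137, 89.6 and 82.2. The groups overlapped in all 3 subtypes, and the log2 changes were 0.26, -0.55 and -0.93. The value of 0.26 was the highest of any of the 39 genes in precursor-exhausted CD8+ T cells, where the WT1 level of 5.29 came from few counts. In P5 macrophages the highest was Ifit1, at 140.4, 9.23, 25.9 and 61.8 against 51.1, 39.1 and 45.1. KO1 alone was far above the WT range, with a log2 change of 0.46 that became -0.42 without KO1.

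OAS enzymes make the messenger that activates RNase L, and with Isg20 this group had a median of -0.59 and 29 of 92 tests past the unadjusted threshold (background 2.76%). Isg20 was at 137, 152, 133 and 116 in the KO libraries and 106, 122 and 213 in the WT libraries of precursor-exhausted CD8+ T cells. In P5 macrophages Isg20 was at 5.85, 11.9, 15.9 and 24.1 against 36.5, 23.7 and 19.4. In cDC1 it was at 21.7, 28.0, 48.0 and 42.3 against 112, 59.8 and 35.6. The groups overlapped in each, and WT1 was the highest library in the P5 macrophages and cDC1 and the lowest in the T cells. The log2 changes were -0.18, -0.86 and -0.96, and the first became 0.29 without WT3. The lowest log2 change of this role group was that of Oasl1 in Tregs, -2.06, with 3.16, 6.25, 0 and 13.1 in the KO libraries and 37.6 and 17.7 in the WT libraries. The Tregs of KO1 and WT3 held 316238 and 282271 UMIs in all, so these levels rest on few counts.

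Isg15, with its protease Usp18 and its ligase Herc6, formed the group with the lowest median, where 28 of 60 tests passed the unadjusted threshold (background 2.76%). Isg15 was at 45.0, 46.8, 48.3 and 80.1 in the KO libraries and 84.6, 124 and 91.3 in the WT libraries of precursor-exhausted CD8+ T cells. In P5 macrophages it was at 316, 125, 165 and 360.4 against 409, 335 and 411. In cDC1 Isg15 was at 152, 173, 315 and 246 against 789, 471 and 365. The groups did not overlap in the T cells and in cDC1, and KO4 exceeded WT2 in P5 macrophages. The log2 changes were -0.86 (unadjusted p = 0.00294), -0.63 and -1.30 (unadjusted p = 0.00349), the last being the lowest of the 39 genes in cDC1. Over all subtypes Isg15 had a lower level at the unadjusted threshold in 12 of 21, and Usp18 in 10 of 19.

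**Figure D5:**
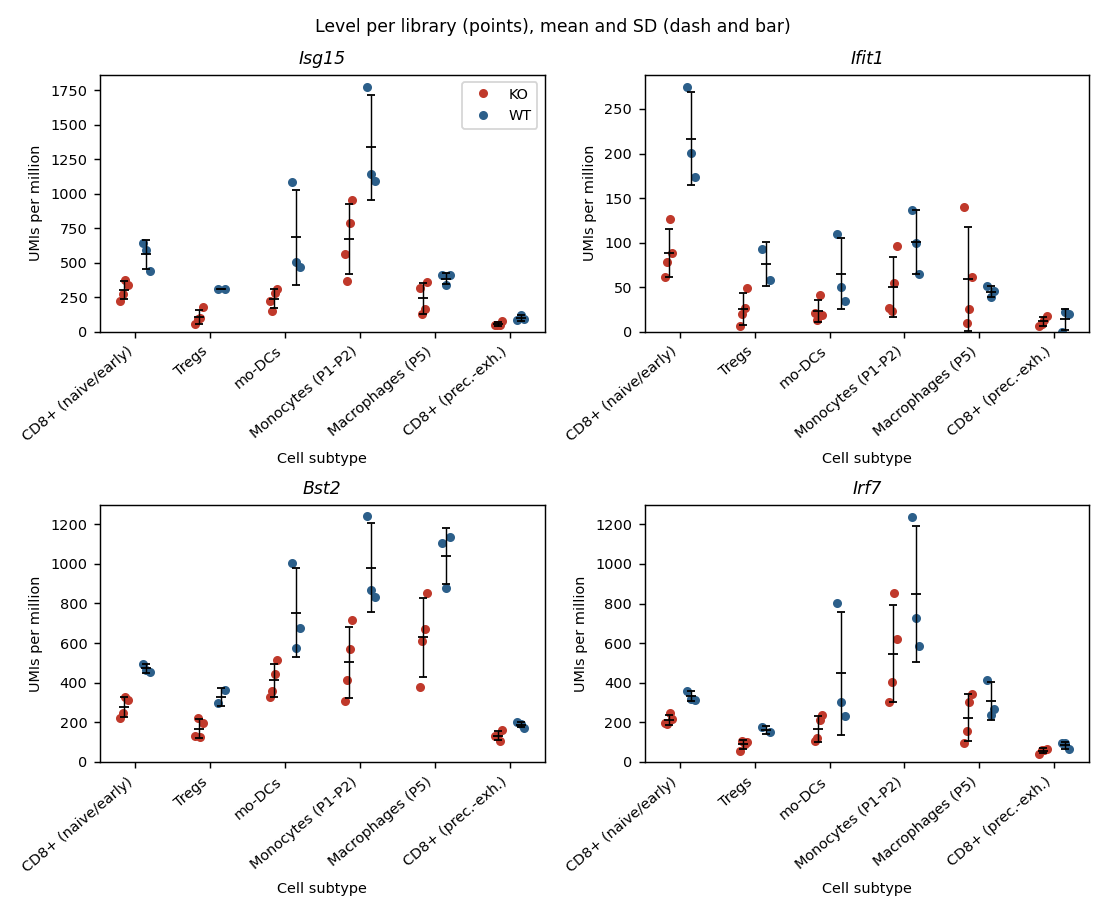
Isg15, Ifit1, Bst2 and Irf7 in CPM for each library in 6 subtypes, with the group mean and SD. For Isg15 in mo-DCs the KO libraries lie between 149 and 306 and the WT libraries between 468 and 1080.4, and for Irf7 in P5 macrophages the groups overlap.

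Guanylate-binding proteins are GTPases that attack pathogen membranes, and 15 of 92 tests of this group passed the unadjusted threshold (background 2.76%). Gbp7 was at 74.5, 59.7, 86.8 and 56.5 in the KO libraries and 63.5, 79.2 and 88.1 in the WT libraries of precursor-exhausted CD8+ T cells. In P5 macrophages Gbp7 was at 67.6, 75.6, 87.7 and 112 against 51.1, 93.6 and 119. In cDC1 it was at 10.02, 10.2, 11.9 and 14.6 against 7.99, 14.4 and 19.7. The groups overlapped in all 3, with WT1 the lowest library in the P5 macrophages and cDC1, and the log2 changes were -0.20, -0.02 and -0.26. Gbp4 in cDC1 had the highest change of the 39 genes there, 0.10, at 4.17, 5.6, 7.63 and 5.40 against 4.34, 3.66 and 7.91. Gbp4 had a lower level at the unadjusted threshold in 2 of 20 subtypes.

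The membrane restriction factors had 21 of 42 tests past the unadjusted threshold (background 2.76%) and a median of -0.53. Ifitm3 was at 213, 291, 168 and 147 in the KO libraries and 249, 377 and 337 in the WT libraries of precursor-exhausted CD8+ T cells. In P5 macrophages it was at 856, 932, 1123 and 1441 against 1628, 1312 and 1363. In cDC1 Ifitm3 was at 1051, 585, 895 and 904 against 2156, 959 and 636. KO2 overlapped the WT range in the T cells, KO4 in P5 macrophages and every KO library but KO2 in cDC1, with log2 changes of -0.65, -0.37 and -0.54. The value in cDC1 became 0.09 without WT1. Bst2 had a lower level at the unadjusted threshold in 14 of 21 subtypes, more than any other of the 39 genes, and in 13 every KO library was below every WT library. The share of all genes with every KO library below ran from 1.31% in B cells to 13.2% in tumour or stromal cells.

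Cytosolic sensors and PYHIN proteins, which detect RNA or DNA inside the cell, had 26 of 98 tests past the unadjusted threshold (background 2.76%) and a median of -0.45. Ifi209 was at 69.4, 59.6, 88.6 and 60.9 in the KO libraries and 101, 91.2 and 85.2 in the WT libraries of precursor-exhausted CD8+ T cells. The P5 macrophages had 50.6, 73.1, 107 and 91.9 against 123, 99.2 and 119. The cDC1 had 56.8, 57.9, 123 and 77.3 against 169, 105 and 76.1. In all 3 KO3 was the highest KO library and lay within the WT range, with log2 changes of -0.36, -0.48 and -0.58. Ifi204 had the lowest change of the 39 genes in precursor-exhausted CD8+ T cells, -0.91 (unadjusted p = 0.0297), at 4.82, 11.4, 5.12 and 7.46 against 7.93, 18.1 and 12.3.

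Rsad2, which encodes viperin, and its neighbour Cmpk2, which supplies it with CTP, had 9 of 29 tests past the unadjusted threshold (background 2.76%) and a median of -0.61. Rsad2 was at 7.06, 4.96, 4.51 and 10.2 in the KO libraries and 10.6, 9.89 and 10.2 in the WT libraries of precursor-exhausted CD8+ T cells. In P5 macrophages Rsad2 was at 116, 27.9, 55.8 and 97.6 against 107, 76.3 and 84.8. In cDC1 it was at 13.4, 12.3, 20.2 and 24.4 against 46.4, 33.4 and 31.8. The groups overlapped in the T cells and in P5 macrophages, where KO1 was the highest of the 7, and did not overlap in cDC1. The log2 changes were -0.61, -0.22 and -1.06 (unadjusted p for cDC1 = 0.00149, edgeR adjusted p = 0.5596).

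The other induced genes had 57 of 168 tests past the unadjusted threshold (background 2.76%) and a median of -0.41. Ifi27l2a was at 806, 652, 629.7 and 911 in the KO libraries and 661, 1059.7 and 632 in the WT libraries of precursor-exhausted CD8+ T cells. In P5 macrophages it was at 526, 546, 740.2 and 675 against 1185, 693 and 714. In cDC1 the levels were 251, 276, 308 and 401 against 807, 426 and 354. The groups overlapped in all 3, and the log2 changes were -0.03, -0.44 and -0.77. In P5 macrophages Ifi44 had the lowest change of the 39 genes, -1.42 (SE 0.45, unadjusted p = 0.0122), at 1.83, 8.68, 6.83 and 13.6 against 25.5, 14.4 and 24.1, with no overlap. Trim30a, a feedback regulator of Toll-like receptor signalling, had a log2 change below 0 in all 21 subtypes, and Phf11b had a lower level at the unadjusted threshold in 10 of 19. Parp14, by contrast, had one in 1 of 21.

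The driver acts in microglia, of which the low-quality or activated cluster entered the tests above. The main microglia cluster held too few KO cells to do so. The KO libraries held 10, 7, 0 and 15 main microglia and the WT libraries 44, 48 and 39. In the WT libraries their sums were 5252, 4895 and 6365. KO1 with 10 cells had 6719, KO2 with 7 cells had 5148 and KO4 with 15 cells had 7969.9, within or above the WT range. With the minimum lowered to 10 cells, KO1 and KO4 were compared with the 3 WT libraries: 9 of 34 tested genes had a log2 change below 0 and the median was 0.39, above 0 where the medians of the 21 subtypes with at least 20 cells were below 0. A higher level at an unadjusted p under 0.05 was found for 7 genes (background 5.12%) and a lower one for 0, and 0 were called by edgeR, with 0.38 as the lowest adjusted p. The 7 were Ifi204, Ifi27l2a, Ifit1, Ifitm3, Phf11b, Rsad2 and Zbp1.

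The values of these microglia rest on few UMIs. Rsad2 was at 445 in KO1, from 51 UMIs, and at 81.1 in KO4, from 8 UMIs, against 46.2, 25.7 and 58.3 in the WT libraries, with a log2 change of 2.72. Ifit1 was at 105 in KO1 from 12 UMIs and at 50.7 in KO4 from 5 UMIs, against 40.7, 16.1 and 12.7. Ifitm3 was at 1344 and 1714 in KO1 and KO4, against 907, 717 and 1333. In each of these 3 genes KO1 and KO4 were above all WT libraries, by a narrow margin for Ifitm3. KO2 was not: it had 0 UMIs of Rsad2 and Ifit1, which allows a level of up to 112 at its depth, and Ifitm3 at 1227, below WT3. Both tested KO libraries were above every WT library for 8 of the 34 genes, against 10.5% of all genes, and below for 3, against 18.3%. The most abundant gene of each role group is given next with KO1, KO2 and KO4 first. Irf7 was at 192, 186 and 396 against 255, 222 and 273, and Isg15 at 497, 223 and 254 against 274, 289 and 386, so that for both genes KO libraries lay above and below the WT range. Ifi27l2a was at 977, 1189 and 1035 against 606, 851 and 674, with all 3 KO libraries above. Ifit2 was at 192, 0 and 142 against 144, 151 and 94.7, and Isg20 at 52.4, 0 and 50.7 against 38.0, 51.4 and 29.1. Gbp7 was at 69.8, 149 and 91.3 against 96.4, 88.4 and 153, with a log2 change of -0.41, and Ifi209 at 69.8, 92.9 and 132 against 85.5, 70.7 and 106. For these 4 genes the groups overlapped. Gamma-delta T cells had at least 20 cells in 1 KO library, with a sum of 1896 against 7126, 3816 and 4614 in the WT libraries. At a minimum of 10 cells, 11 of their genes were tested, all with log2 changes below 0 (50.7% over all genes), and 4 had a lower level at the unadjusted threshold (background 2.76%).

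Whether the genotype contrast differed between lymphoid and myeloid cells was tested for 1 pair of subtypes, precursor-exhausted CD8+ T cells against P5 macrophages. Both entered 1 edgeR fit with a term for each mouse and an interaction term. Of the 39 genes 0 were called, and 2 had an unadjusted p under 0.05, where 4.3% of all genes had one. These were Cmpk2, with a difference in log2 change of 1.31, and Ifi204, with -0.96. When each mouse was left out 0 of the 39 were called, and from 0 (without WT1) to 3 (without KO2 or WT2) had an unadjusted p under 0.05. With no filter on low counts 0 were called and 6 had one, where 942 of 25354 genes did.

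Genes of the same pathway that are not among the 39 came from lists chosen with earlier results of these data known. Of 782 tests of 43 other interferon-induced genes, 138 had a lower and 11 a higher level in the KO libraries at an unadjusted p under 0.05, where 2.76% of all tests were lower and 2.68% higher, and the median log2 change was -0.23. A call was made by edgeR for 1 gene in each direction. Shisa5, a regulator of apoptosis, was at 142, 134, 128 and 169 in the KO libraries and 379, 222 and 283 in the WT libraries of pDCs, and fell by 1.02 on the log2 scale (edgeR adjusted p = 0.0368). Ms4a4b, a T cell membrane protein gene, was at 339.7, 372, 299 and 399.7 against 178 and 150.5 in proliferating CD4+ T cells and Tregs, and rose by 1.10 (edgeR adjusted p = 0.0397). For both genes the KO and WT libraries did not overlap, and WT1 was the highest library for Shisa5.

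Genes listed as responding mainly to interferon gamma had 44 lower and 4 higher values at the unadjusted threshold in 297 tests, beside the same 2.76% and 2.68%, with a median of -0.30. The median of a gene over its subtypes was below 0 for most of the list. It was above 0 for Gbp9 (0.10, with 1 lower and 2 higher at that threshold), Serpina3g (0.09), Ciita (0.01) and Nos2 (0.11). Cxcl9 had a log2 change below 0 in 10 of 19 subtypes. Iigp1, an immunity-related GTPase, was at 14.9, 13.6, 18.2 and 14.2 in the KO libraries and 45.0, 56.8 and 52.8 in the WT libraries of naive or early-activated CD8+ T cells. It was well separated and fell by 1.77 on the log2 scale (edgeR adjusted p = 0.00593).

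The upstream parts of the pathway had smaller medians. Receptors and JAK-STAT genes had 22 lower and 8 higher values at the unadjusted threshold in 345 tests (6.38% and 2.32%, against 2.76% and 2.68% of all tests), with a median of -0.03. Of these Irf8 had 2 lower and 2 higher with a median of -0.23, and Ifngr1 0 lower and 1 higher with a median of 0.26. Nucleic acid sensors and their adaptors had 23 lower and 3 higher in 247 tests (9.31% and 1.21%, against the same 2.76% and 2.68%), with a median of -0.13. Of these Samhd1, a dNTP hydrolase, was lower in 5 of 21 subtypes, Sting1, the adaptor of cytosolic DNA sensing, in 2 of 21, and Trex1, a DNA exonuclease, in 3 of 18. Of the ligands, 2 genes could be tested in 13 combinations, and 0 had a lower and 2 a higher value. Both were Ifng, the gene of interferon gamma, with log2 changes of 2.25 in mo-DCs and 1.59 in P5 macrophages. In mo-DCs it was at 13.5, 6.32, 4.84 and 23.1 in the KO libraries and 1.86, 0.706 and 6.56 in the WT libraries, where KO2 and KO3 lay below WT3. In P5 macrophages it was at 10.6, 9.77, 12.5 and 1.56 against 1.43, 3.50 and 3.60, with KO4 within the WT range. Of the 12 subtypes in which Ifng was tested, 5 had a log2 change below 0, the lowest being -0.80. In NK cells Ifng was at 72.7, 145, 384.5 and 104 in the KO libraries and 409, 224 and 208 in the WT libraries. There KO3 lay within the WT range and KO1, KO2 and KO4 below it. In exhausted CD8+ T cells it was at 134, 281, 244 and 174 against 187 (WT2) and 286 (WT3), which overlapped. Ifng is known as a product of T and NK cells, so the summed level of 7 T cell markers is given for the mo-DCs and P5 macrophages. In mo-DCs that sum was 62.7, 61.5, 52.6 and 193 in the KO libraries and 35.8, 15.9 and 41.5 in the WT libraries. In P5 macrophages it was 52.3, 52.8, 60.9 and 51.3 against 10.7, 34.3 and 22.5. In both subtypes every KO library had a higher marker sum than every WT library, also KO4 in P5 macrophages, whose Ifng was within the WT range, and 6 or 7 of the 7 markers were above 0 in each library. T cells made up 43.5, 50.2, 79.9 and 60.6% of the cells in the KO libraries and 10.6, 33.8 and 31.9% in the WT libraries. The part of T cell RNA in the result was not tested, and these values are not read as expression of Ifng by the myeloid cells. Ifnb1, the gene of interferon beta, passed the filter in P5 macrophages alone. It was at 67.6, 0.724, 3.42 and 21.4 in the KO libraries and 0.478, 13.6 and 10.1 in the WT libraries, where KO1 was the highest, as it was for Ifit1 in the same cells.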

How the data were processed

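Cells from 7 mice (4 KO, 3 WT) were profiled by 10x 5′ RNA sequencing. Per the submitters' processing notes, reads were checked with FastQC 0.11.5 and counted with STARsolo (STAR 2.7.10a, mm10). The deposited matrix holds expected counts of UMIs, in which 7.51% of the values above 0 were not whole. Subtypes were the authors' annotation, and no doublet caller was run. UMIs were summed per subtype and library with at least 20 cells, rounded, and tested in subtypes with at least 2 libraries per group by edgeR 4.0.16 (R 4.3.3, TMM, filterByExpr, quasi-likelihood), adjusting over all genes of a subtype. The design had assumed whole counts. Scripts were tested on simulated data. Alternatives were DESeq2 1.42.0, RLE size factors, no filter, 10 or 50 cells, replicate as a block, a sex term, whole values only and leaving out each mouse, which left 1 library in a group in 16 of 135 fits. The members, lists and tests were chosen with earlier results of these data known. Genes were named where called, as the most abundant of a role group, as extremes of the largest subtypes, or where said, after their values were seen.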

Additional observations from a re-analysis of the deposited data

Results flagged for a closer look

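In precursor-exhausted CD8+ T cells KO4 lay apart from the other 3 KO libraries, by a gap test for single samples (Dixon's, at the 95% level), in the summed level of the 39 genes (2534 against 2331 to 2338 CPM) and in Isg15 (80.1 against 45.0 to 48.3). These were 2 of 49 groups tested, and chance alone marks about 1 in 20.

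Of 4 genes every KO library lay above every WT library in 1 subtype and below in others, and none of these differences between subtypes was tested. Stat2 did so in exhausted CD8+ T cells (log2 change 0.53, against 2 subtypes with every KO library below), Gbp7 (0.15, against 3) and Nmi (0.32, against 3) in tumour or stromal cells, and Rsad2 in low-quality or activated microglia (0.82, against 4). In these subtypes, in that order, 1 of 32, 2 of 34 and 1 of 23 members had every KO library above. Over all genes it was 802 of 7403, 1248 of 10431 and 305 of 2350, so such values were no more frequent among the members.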

How the results depend on the processing

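The number of members called over all subtypes, 1 by the edgeR test, was 25 with DESeq2, 97 with no filter on low counts and 2 with a sex term (0.0836%, 0.291% and 0.019% of all tests were called there, against 0.0166%), and between 0 and 14 when each mouse was left out: 0 without WT1, 2 without KO1 or WT2, 3 without WT3, 5 without KO3 and 14 without KO4, with 0.00886% to 0.0768% of all tests called. Of these 135 fits 16 had a single library in a group, whose spread was taken from the other group, and without them the counts were 13 without KO4 and 2 without WT3. With the replicate number as a block it was 32 (0.214% of all tests), while the correlation of same-numbered libraries ran from -0.22 to 0.108, so the numbers were not taken to pair the mice; the call of Ifit1 in naive or early-activated CD8+ T cells was lost there (edgeR adjusted p = 0.0548). Median log2 changes by subtype kept their direction in 292 combinations of subtype and alternative and turned it in 3: when each mouse was left out they ran from -0.20 to 0.044 in Tfh cells, from -0.38 to 0.27 in proliferating CD4+ T cells and Tregs, and from -0.19 to 0.0087 in tumour or stromal cells, each highest without WT2. In Tfh cells and in proliferating CD4+ T cells and Tregs both ends come from fits with a single WT library. Of the log2 changes of named members under the alternatives, 452 kept their direction and call, 4 lost and 6 gained a call, and 18 turned direction. Over the left-out mice these ran, in precursor-exhausted CD8+ T cells, from -0.35 to 0.29 for Isg20 (highest without WT3) and from -0.17 to 0.28 for Ifi27l2a (without WT2); in P5 macrophages from -0.31 to 0.28 for Gbp7 (without WT3), from -0.52 to 0.057 for Rsad2 (without KO2) and from -0.42 to 0.82 for Ifit1 (lowest without KO1); and in cDC1 from -0.52 to 0.051 for Gbp7 (highest without WT3), from -0.86 to 0.093 for Ifitm3 (without WT1) and from -0.10 to 0.50 for Gbp4 (lowest without WT2). Ifi27l2a in precursor-exhausted CD8+ T cells was at 0.030 with no filter and 0.000114 with a sex term, and Ifit1 in P5 macrophages at -0.27 with the replicate block. Counts of lower genes at an unadjusted p under 0.05 moved by over 1.5 times with a sex term in monocytes (25), cDC1 (25), P3 macrophages (18), NK cells (5), low-quality or activated microglia (1), B cells (0) and proliferating CD4+ T cells and Tregs (1). With the replicate block they did so in monocytes (23), pDCs (21), P3 (18), P5 (17) and proliferating macrophages (22), NK cells (5), Th1 cells (6) and B cells (3). A replicate number held by 1 group only, as 4 is by KO4, takes its own term in the block fit. KO4 then does not inform the genotype contrast, so this is not an alternative apart from leaving out KO4. Without KO4 the counts were 22 in monocytes, 18 in pDCs, 18 in P3, 19 in P5 and 23 in proliferating macrophages. By DESeq2 they did so in naive or early-activated CD4+ T cells (3), Th1 cells (5), low-quality or activated microglia (1) and B cells (2). With no filter they did so in 9 subtypes, upwards in each, with 25 in proliferating macrophages. The share over all genes moved as well. In monocytes it went from 3.68% to 4.3% with a sex term and to 5.395% with the replicate block, and in NK cells from 2.21% to 2.73% and to 1.655%. The causes were not tested. The 9 subtypes in which every KO library had a lower sum than every WT library became 4 with sums taken without the 4 genes of the highest mean level, an alternative chosen after the data were seen. They became 8 with mitochondrial and ribosomal genes left out of the total. This count was not recomputed without single mice. Leaving out a library cannot create an overlap but can remove it. Without KO4 the highest KO sum would lie below the lowest WT sum in monocytes (11647 against 12007) and P5 macrophages (5239 against 5768). In P3 macrophages KO3 (7660) would still lie above WT3 (7440). Leaving out mitochondrial and ribosomal genes, or thinning to 1000 or 3000 UMIs, kept the direction of the KO to WT ratios, and precursor-exhausted CD8+ T cells moved to a ratio of 0.766 at 3000. The interaction of main microglia with P5 macrophages was not run, since no more than 15 KO microglia came from any mouse.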
